A study of Rattus norvegicus with 24 samples.

Results

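The NADPH oxidase of phagocytes is assembled from membrane proteins, cytosolic proteins and a small GTPase, and 7 of its subunits and relatives were chosen by gene name: Cybb, Cyba, Ncf1, Ncf4, Rac1, Rac2 and Nox4. Of these 7 genes, 6 were followed among the 29539 genes of the tables, and Cybb was not analysed here. Of the 6, 5 passed the filter on low counts that left 14421 genes for testing, and Nox4 did not. RNA had been sequenced after poly(A) selection from rat (Rattus norvegicus) brain in 3 groups of 8 libraries. The SKF group received SKF-81297, an agonist of D1-like dopamine receptors, injected into the peritoneum on each of 3 days, with the first dose 1 h after a stab wound of the forebrain. For the Vehicle group the labels hold that word alone, taken here to mean a wounded brain that received the carrier. The Normal Control group is named as normal tissue, and no sham operation is stated for it. No label states the strain, age or sex, the piece of brain taken or when it was collected. The labels do not say that libraries of a group came from separate animals, so the p-values measure spread between samples that may be technical.

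In a resting phagocyte the catalytic oxidase subunit sits in the membrane with Cyba, while Ncf1 and Ncf4 wait in the cytosol. After a stimulus Ncf1 is phosphorylated and carries the cytosolic group to the membrane, where a Rac protein loaded with GTP joins it and electrons pass from NADPH to oxygen to make superoxide. In brain this oxidase is known mainly from microglia and from blood phagocytes that enter after injury, whereas Nox4 is a relative that needs Cyba but neither the cytosolic subunits nor Rac, and makes hydrogen peroxide.

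The libraries held between 8911339 and 12383368 counts each, and the biological coefficient of variation was 16.2%. No pair of libraries held identical values. Cell type markers were summed in each library. The 6 neuron markers were present in every group, at 3082 to 4174 CPM in SKF, 2405 to 4097 CPM in Vehicle and 3960 to 4954 CPM in Normal Control. The summed level of 8 neutrophil markers ran from 25.2 to 47.0 CPM (counts scaled to a common library size) in SKF, from 48.5 to 105 CPM in Vehicle and from 3.24 to 5.96 CPM in Normal Control, where Elane was at 0 in every library. For 8 markers of blood-derived macrophages and monocytes the sums were 154 to 286 CPM in SKF, 203 to 298 CPM in Vehicle and 22.9 to 36.9 CPM in Normal Control. For 7 homeostatic microglia markers they were 161 to 203 CPM in SKF, 155 to 217 CPM in Vehicle and 194 to 234 CPM in Normal Control, with Siglech at 0 in Normal Control. Normal Control 4 and 6 had stood apart in earlier results of these data, and values without both are given for each tested member and wherever a list's count of calls differed.

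The starts of 3 member genes could be shown from the RefSeq promoter table of build GRCr8, a later build than the mRatBN7.2 of the counts. Each runs from 250 bases before to 50 bases after the annotated start of the gene, on the gene's own strand, and the single capital letter marks the first transcribed base. Cyba and Ncf1 are shown because both rose in wounded brain, and Nox4 because it stayed near the limit of detection.
Cyba, chr19:67404165-67404464, minus strand: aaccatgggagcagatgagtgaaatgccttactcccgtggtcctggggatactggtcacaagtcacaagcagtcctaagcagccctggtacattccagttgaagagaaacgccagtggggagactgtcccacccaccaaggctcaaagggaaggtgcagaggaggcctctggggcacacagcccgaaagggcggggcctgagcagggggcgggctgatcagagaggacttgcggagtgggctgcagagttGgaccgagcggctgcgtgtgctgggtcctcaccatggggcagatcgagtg
Ncf1, chr12:28121635-28121934, plus strand: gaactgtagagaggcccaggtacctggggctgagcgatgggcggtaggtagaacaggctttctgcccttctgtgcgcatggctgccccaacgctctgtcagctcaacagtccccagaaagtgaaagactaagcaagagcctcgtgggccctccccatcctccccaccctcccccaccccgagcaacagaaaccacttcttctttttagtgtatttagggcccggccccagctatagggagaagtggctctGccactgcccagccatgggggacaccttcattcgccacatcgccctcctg
Nox4, chr1:150313639-150313938, plus strand: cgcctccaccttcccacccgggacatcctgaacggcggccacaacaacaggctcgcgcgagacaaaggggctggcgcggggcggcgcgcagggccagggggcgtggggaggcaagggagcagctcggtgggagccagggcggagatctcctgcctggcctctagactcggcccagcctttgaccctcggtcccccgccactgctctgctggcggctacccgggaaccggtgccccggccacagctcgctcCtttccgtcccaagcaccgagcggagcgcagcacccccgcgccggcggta
The G and C content was 61.0% for Cyba, 59.7% for Ncf1 and 73.0% for Nox4, against a median of 51.7% over the 33469 promoters of the table. Both strands were searched for GAGGAA (the core bound by PU.1, the product of Spi1), TGANTCA (bound by AP-1) and CCAAT (bound by NF-Y), none of which is contained in another. Among all promoters listed, 27.6% held the first, 7.33% the second and 37.5% the third. These letters occurred 0 times in the 3 windows shown, which describes these windows alone. Ncf4, Rac1 and Rac2 are named without a promoter.

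The first comparison, Vehicle against Normal Control, asks what differs in brain after a stab wound. The cytosolic subunit Ncf4, the haematopoietic GTPase Rac2, the membrane subunit Cyba and the organiser Ncf1 were all higher in Vehicle, by 16.1-fold, 5.73-fold, 3.38-fold and 2.91-fold. The broadly expressed GTPase Rac1 was 1.10-fold higher. The second, SKF against Vehicle, asks what differs with the agonist, and no member passed that test. Tests were edgeR quasi-likelihood tests on counts, with Benjamini-Hochberg adjustment over the 14421 genes and a threshold of 0.05, and ± after a log2 fold change is its standard error. In Vehicle against Normal Control 54.0% of genes passed in either direction, 26.9% higher and 27.1% lower. All 5 members past the filter were called higher, with a median log2 fold change of 1.76 against -0.01 over all genes tested. Ncf4 passed that filter only through the wounded groups, so this count is set in part by the filter. Between SKF and Vehicle 0% of genes passed, and 0 genes were called by DESeq2 as well. At an edgeR unadjusted p under 0.05 there were 715 genes, about the number expected with no difference in any gene. In SKF against Normal Control 50.2% passed, 25.5% higher and 24.7% lower. Fewer cells of a type and less RNA per cell cannot be told apart in these bulk samples.

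**Figure D1:**
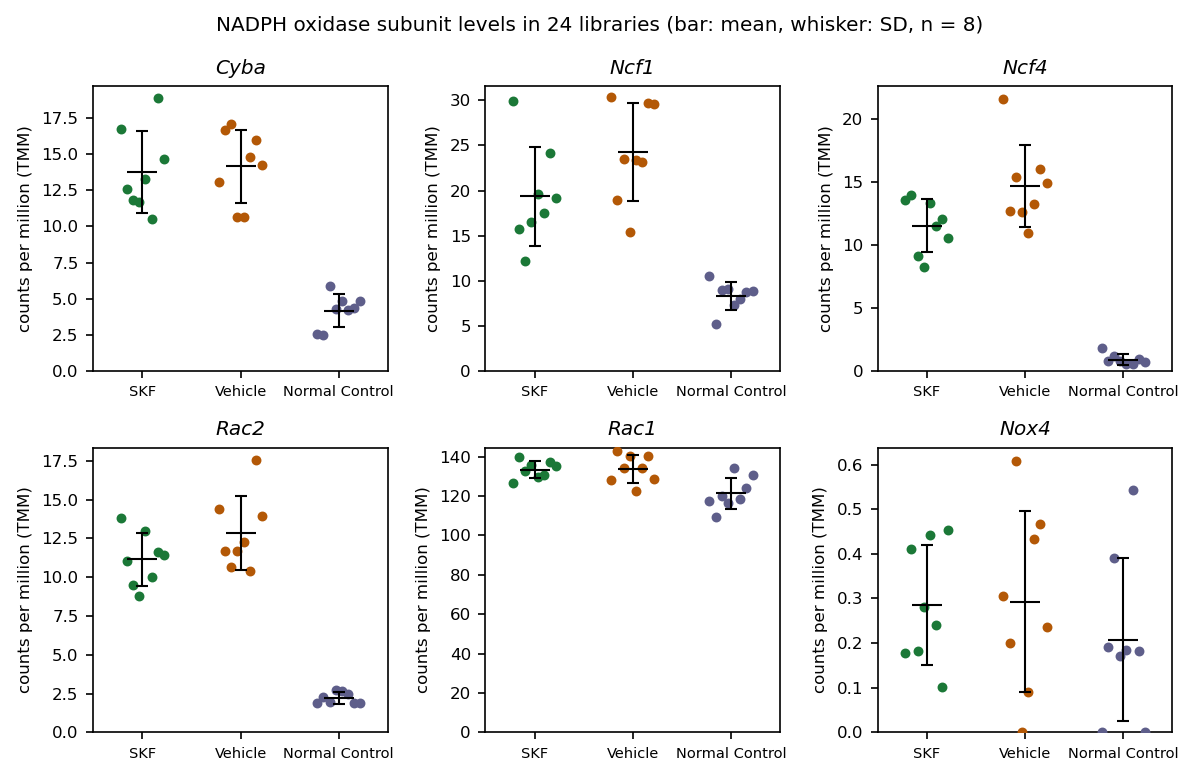
Level of each measured subunit in CPM (TMM-scaled) in every library of the SKF, Vehicle and Normal Control groups, with the group mean as a bar and the SD as a whisker (n = 8). For Cyba, Ncf1, Ncf4 and Rac2 every SKF and Vehicle library lies above every Normal Control library, while Rac1 and Nox4 overlap between groups. The share of all tested genes that separate in this way was not counted.

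Cyba encodes the small membrane protein that stabilises the catalytic subunits and gives Ncf1 its docking site. Its level was 10.5, 12.9 and 18.9 CPM (lowest, median, highest) in SKF, 10.7, 14.6 and 17.1 CPM in Vehicle, and 2.49, 4.31 and 5.87 CPM in Normal Control. The SKF and Vehicle libraries covered nearly the same range, and none of them overlapped Normal Control. How many of all tested genes separate from Normal Control in this way was not counted, here or for the members below. Cyba rose by 1.76 ± 0.16 on the log2 scale in Vehicle against Normal Control (95% interval 1.43 to 2.08, edgeR adjusted p = 4.09e-10). In SKF against Vehicle the log2 difference was -0.04 ± 0.15 (95% interval -0.34 to 0.26, edgeR adjusted p = 0.982). In SKF against Normal Control it rose by 1.72 ± 0.16 (edgeR adjusted p = 7.51e-10).

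Ncf1 encodes the organiser that, once phosphorylated, brings the cytosolic proteins to Cyba. Its level was 12.1, 18.3 and 29.9 CPM (lowest, median, highest) in SKF, 15.5, 23.5 and 30.3 CPM in Vehicle, and 5.16, 8.80 and 10.5 CPM in Normal Control. All 16 wounded libraries lay above the highest Normal Control library. Ncf1 rose by 1.54 ± 0.17 (log2) in Vehicle against Normal Control (95% interval 1.20 to 1.88, edgeR adjusted p = 1.42e-08) and by 1.21 ± 0.17 in SKF against Normal Control (edgeR adjusted p = 8.99e-07). In SKF against Vehicle the log2 difference was -0.33 ± 0.16 (95% interval -0.65 to -0.01), with 6 of 8 SKF libraries under the Vehicle median. It did not pass over all genes (edgeR unadjusted p = 0.0447, adjusted p = 0.937).

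Ncf4 encodes the cytosolic subunit that binds a phosphoinositide of the phagosome membrane. Its level was 8.23, 11.8 and 13.9 CPM (lowest, median, highest) in SKF, 11.0, 14.1 and 21.6 CPM in Vehicle, and 0.542, 0.765 and 1.78 CPM in Normal Control. As raw counts these were 88 to 169 in SKF, 122 to 211 in Vehicle and 5 to 18 in Normal Control, around the filter's minimum of 10 counts. Ncf4 thus passed the filter through the wounded groups, where it is high, so its direction and rank were set in part by the filter. Ncf4 rose by 4.01 ± 0.20 (log2) in Vehicle against Normal Control (95% interval 3.61 to 4.41, edgeR adjusted p = 1.43e-15), rank 99 of 14421 genes by log2 fold change. In SKF against Normal Control it rose by 3.67 ± 0.20 (edgeR adjusted p = 1.21e-14), a 12.7-fold difference. On the log2(TPM + 1) scale, which understates low genes, the rise in Vehicle was 3.47.

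Between SKF and Vehicle the log2 difference of Ncf4 was -0.34 ± 0.15 (95% interval -0.65 to -0.04). All 8 SKF libraries lay under the Vehicle median, but the groups overlapped and the difference did not pass over all genes (edgeR unadjusted p = 0.0300, adjusted p = 0.937). The summed neutrophil markers did not overlap between these groups, but the gap was narrow and the sum was not tested. The highest SKF library had 47.0 CPM and the lowest Vehicle library 48.5 CPM. Each of the 5 neutrophil markers tested overlapped between the groups when taken alone. None of the 5 passed, and their median log2 difference was -0.72. None of the 8 macrophage and monocyte markers passed either, with 8 of 8 below 0 and a median of -0.31. The part of these cell types in the values of Ncf4 and Ncf1 was not tested.

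Rac2 encodes the Rac protein of blood cells, the usual partner of the oxidase in neutrophils. Its level was 8.80, 11.2 and 13.8 CPM (lowest, median, highest) in SKF, 10.4, 12.0 and 17.6 CPM in Vehicle, and 1.88, 2.13 and 2.72 CPM in Normal Control. The Normal Control libraries lay close together and below every wounded library. Rac2 rose by 2.52 ± 0.13 (log2) in Vehicle against Normal Control (95% interval 2.25 to 2.79, edgeR adjusted p = 8.16e-15). In SKF against Normal Control the rise was 2.32 ± 0.13 (4.98-fold, edgeR adjusted p = 6.16e-14). In SKF against Vehicle the log2 difference was -0.20 ± 0.12 (95% interval -0.44 to 0.04, edgeR adjusted p = 0.937), with 6 of 8 SKF libraries under the Vehicle median. In the GRCr8 annotation Rac2 overlaps 2 long non-coding RNA genes, and the strand setting of the counting is not given, so reads of the overlap cannot be assigned with certainty.

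Rac1 encodes the Rac protein that nearly every cell makes and that also drives actin remodelling. Its level was 126, 134 and 140 CPM (lowest, median, highest) in SKF, 122, 134 and 143 CPM in Vehicle, and 109, 119 and 134 CPM in Normal Control. The groups overlapped, and the spread between libraries was the smallest of the measured members, with a coefficient of variation of 3.25% in SKF, 5.30% in Vehicle and 6.60% in Normal Control. Rac1 rose by 0.14 ± 0.05 (log2) in Vehicle against Normal Control (95% interval 0.05 to 0.23, edgeR adjusted p = 0.0100) and by 0.14 ± 0.05 in SKF against Normal Control (edgeR adjusted p = 0.0142). With neither Normal Control 4 nor 6 these were 0.13 (edgeR adjusted p = 0.0397) and 0.12 (edgeR adjusted p = 0.0520), so the second call was lost. On the log2(TPM + 1) scale, where the median gene stood 0.11 higher in Vehicle and 0.09 higher in SKF than in Normal Control, Rac1 stood 0.27 and 0.24 higher. In SKF against Vehicle the log2 difference was -0.01 ± 0.05 (95% interval -0.10 to 0.09, edgeR adjusted p = 0.993).

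Nox4 encodes the relative that is active without the cytosolic subunits. It had 1 to 5 counts per library in SKF, 0 to 7 in Vehicle and 0 to 5 in Normal Control, or 26, 25 and 17 counts in all. No SKF library, 1 Vehicle library and 2 Normal Control libraries had no count, and 16 of 24 libraries were at or under 3 counts. The mean level was 0.286 ± 0.135 CPM in SKF, 0.293 ± 0.203 CPM in Vehicle and 0.208 ± 0.183 CPM in Normal Control (SD, n = 8). A two-sided exact permutation test, chosen after seeing the data, gave p = 0.390 for Vehicle against Normal Control (difference 0.085 CPM, adjusted p = 0.584 over 3 comparisons). The same exact test gave p = 0.940 for SKF against Vehicle (difference -0.006 CPM) and p = 0.341 for SKF against Normal Control (difference 0.079 CPM). A difference was not detectable at this depth, and no fold is given.

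With neither Normal Control 4 nor 6, the log2 fold change in Vehicle against Normal Control was 1.76 for Cyba, 1.56 for Ncf1, 3.89 for Ncf4 and 2.60 for Rac2. The values in SKF against Normal Control were then 1.72 for Cyba, 1.23 for Ncf1, 3.55 for Ncf4 and 2.40 for Rac2. All 8 of these values passed the edgeR test, with the highest adjusted p at 7.74e-06 for Ncf1 in SKF against Normal Control.

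**Figure D2:**
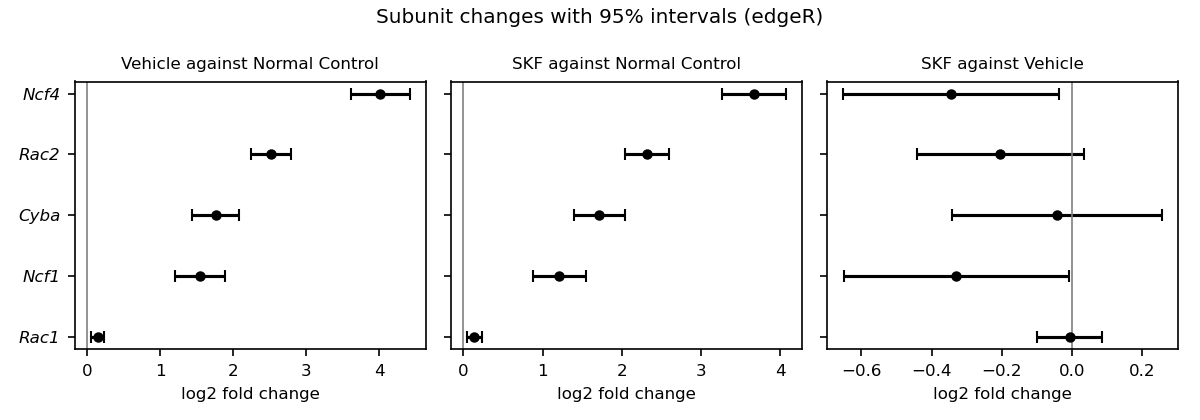
Log2 fold change of the 5 tested subunits with the 95% interval from edgeR, in Vehicle against Normal Control, SKF against Normal Control and SKF against Vehicle, with a line at 0 and a narrower axis in the last panel. Ncf4 has the highest value in both comparisons with Normal Control (4.01 and 3.67), and Rac1 the lowest (0.14 in each).

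Levels of different genes were compared on the TPM scale, which corrects for transcript length. In SKF the order was Rac1 at 148 ± 5.76 TPM, Cyba at 48.4 ± 9.07, Ncf4 at 20.0 ± 4.07, Ncf1 at 17.3 ± 5.06, Rac2 at 12.1 ± 2.02 and Nox4 at 0.303 ± 0.142 (mean ± SD, n = 8). In Vehicle the order was the same, with Rac1 at 151 ± 6.11 TPM, Cyba at 50.7 ± 8.5, Ncf4 at 25.8 ± 5.99, Ncf1 at 22.1 ± 5.08, Rac2 at 14.2 ± 2.70 and Nox4 at 0.314 ± 0.218. In Normal Control Ncf4 stood lower in the order, with Rac1 at 125 ± 10.2 TPM, Cyba at 13.7 ± 3.76, Ncf1 at 6.93 ± 1.30, Rac2 at 2.25 ± 0.414, Ncf4 at 1.45 ± 0.660 and Nox4 at 0.202 ± 0.170. The lowest Rac1 value of any library (114 TPM) was above the highest Cyba value (63.0 TPM), and Nox4 was below every other member in every group. The ranges of Cyba and Ncf4 did not overlap in SKF. They met in Vehicle, where the lowest Cyba value was 38.1 TPM and the highest Ncf4 value 38.8 TPM. Within every Vehicle library Cyba was above Ncf4. The ranges of Ncf4 and Ncf1 overlapped in the wounded groups. They were 14.3 to 24.5 TPM and 10.4 to 27.6 TPM in SKF, and 19.8 to 38.8 TPM and 14.0 to 28.2 TPM in Vehicle. Whether these 2 genes differed within a group was not tested, and their ratio within a library is given below. The ranges of Ncf1 and Rac2 overlapped in the wounded groups too, but within every wounded library Ncf1 was above Rac2. In Normal Control the ranges of Rac2 (1.84 to 2.85 TPM) and Ncf4 (0.812 to 2.86 TPM) overlapped, and those of Ncf1 and Rac2 did not.

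Ncf4 and Ncf1 were set against each other as a description, since the pair was chosen after their fold changes were seen and Ncf4 passed the filter through the wounded groups. The ratio of Ncf4 to Ncf1 within a library (TPM) was 1.20 ± 0.289 in SKF, 1.19 ± 0.227 in Vehicle and 0.208 ± 0.0736 in Normal Control (SD, n = 8), with no overlap between either wounded group and Normal Control. The ratio was 5.96-fold higher in Vehicle than in Normal Control (log2 difference 2.58 ± 0.20) and 5.97-fold higher in SKF than in Normal Control. These differences follow from the fold changes that led to the choice of the pair, so no p is given for them. Between SKF and Vehicle the log2 difference of this ratio was 0.00 ± 0.15 (exact permutation adjusted p = 0.994).

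The balance of the Rac genes differed as well. The ratio of Rac2 to Rac1 (TPM) was 0.0820 ± 0.0143 in SKF, 0.0940 ± 0.0176 in Vehicle and 0.0180 ± 0.00325 in Normal Control (SD, n = 8). It was 5.21-fold higher in Vehicle than in Normal Control, and in SKF it exceeded Normal Control by 2.19 ± 0.13 on the log2 scale, with no overlap in either comparison. Each had an exact permutation p = 0.0001554, the smallest that the 12870 assignments can give, and an adjusted p of 0.0003996 over 18 tests. Between SKF and Vehicle the log2 difference was -0.19 ± 0.13 (exact permutation adjusted p = 0.252). Rac3, the Rac protein of neurons, was the third member of the pool. Of the summed TPM of the 3 Rac genes, Rac1 held 81.6% ± 2.04 in SKF, 80.4% ± 2.46 in Vehicle and 79.8% ± 2.36 in Normal Control. Rac2 held 6.68% ± 1.07 in SKF, 7.53% ± 1.28 in Vehicle and 1.44% ± 0.242 in Normal Control. Rac3 held 11.7% ± 1.81 in SKF, 12.1% ± 2.20 in Vehicle and 18.7% ± 2.30 in Normal Control, and its counts fell by 0.49 ± 0.13 (log2) in Vehicle against Normal Control (edgeR adjusted p = 0.00191).

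Ptprc (CD45), the phosphatase on the surface of leukocytes including microglia, rose by 2.37 ± 0.15 (log2) in Vehicle against Normal Control (edgeR adjusted p = 5.13e-13), and the members were set against it in ratios chosen after seeing the data. For Rac2 no difference in this ratio passed. The ratio of Rac2 to Ptprc (TPM) was 2.75 ± 0.360 in SKF, 2.74 ± 0.454 in Vehicle and 2.54 ± 0.536 in Normal Control (SD, n = 8). The log2 difference was 0.12 ± 0.14 in Vehicle against Normal Control (exact permutation adjusted p = 0.468) and 0.01 ± 0.10 in SKF against Vehicle (exact permutation adjusted p = 0.962). For Ncf4 the ratio to Ptprc was 4.56 ± 0.893 in SKF, 4.97 ± 0.805 in Vehicle and 1.69 ± 0.903 in Normal Control. The ratio of Ncf4 to Ptprc was 3.27-fold higher in Vehicle and 2.99-fold higher in SKF, each against Normal Control. This ratio too was chosen after the rise of Ncf4 was seen, and Ncf4 passed the filter through the wounded groups. For these differences from Normal Control no p is given.

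Ncf1 and Cyba rose less than Ptprc in Vehicle. Their ratios to Ptprc were also chosen after seeing the data. The differences of these ratios from Normal Control largely restate the fold changes given above. The p-values below are thus a description and no separate evidence. The ratio of Ncf1 to Ptprc was 3.93 ± 1.07 in SKF, 4.19 ± 0.338 in Vehicle and 7.99 ± 2.65 in Normal Control. It was lower by 0.87 ± 0.17 (log2 difference -0.87) in Vehicle than in Normal Control, without overlap (exact permutation adjusted p = 0.0003996). In SKF it was also lower than in Normal Control (log2 difference -1.0 ± 0.21, exact permutation adjusted p = 0.00140), with overlapping groups. The ratio of Cyba to Ptprc was 11.2 ± 3.22 in SKF, 9.91 ± 2.21 in Vehicle and 15.4 ± 5.05 in Normal Control. It was lower in Vehicle than in Normal Control (log2 difference -0.61 ± 0.19, exact permutation adjusted p = 0.0109). In SKF against Normal Control the log2 difference was -0.44 ± 0.20 and did not pass (exact permutation adjusted p = 0.0797). That value passed without SKF 7 (-0.55, adjusted p = 0.00373) or without Normal Control 1 (-0.51, adjusted p = 0.0442) by the same exact test. None of the 4 ratios to Ptprc passed between SKF and Vehicle (exact permutation adjusted p from 0.423 to 0.962).

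**Figure D3:**
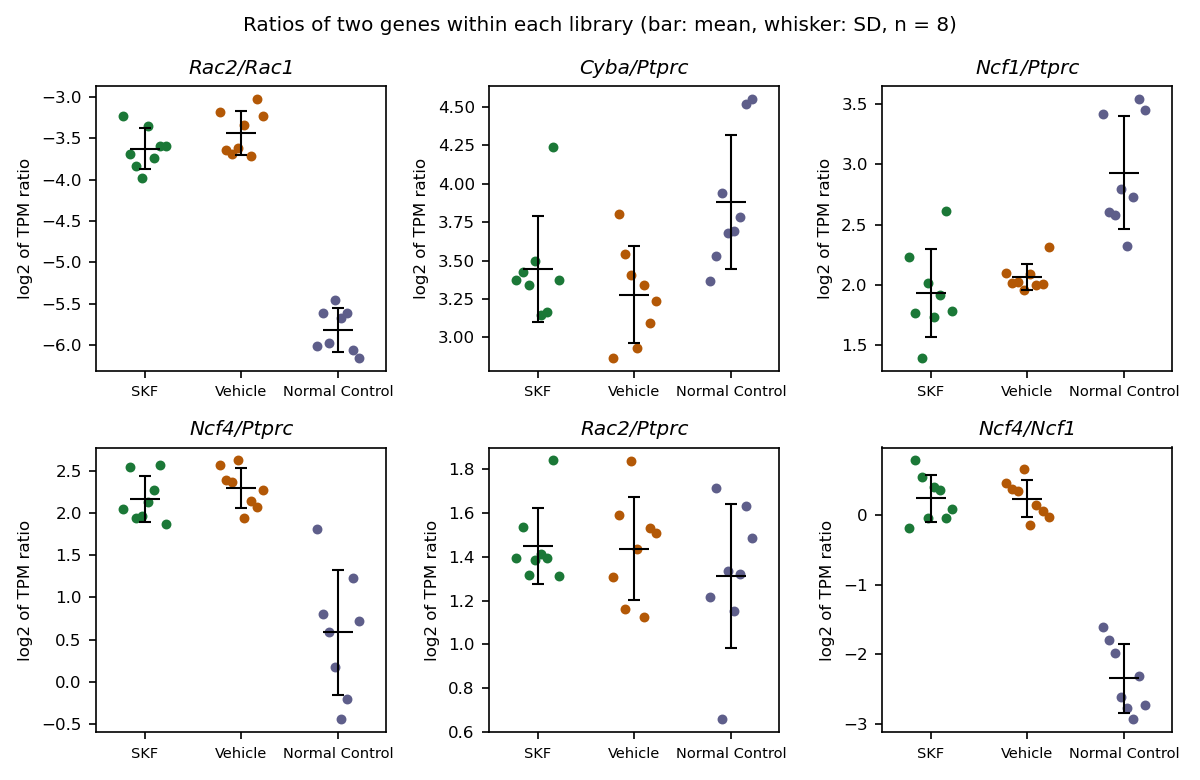
Log2 of the TPM ratio of 6 gene pairs in every library of the SKF, Vehicle and Normal Control groups, with the group mean as a bar and the SD as a whisker (n = 8). Ncf4/Ncf1 and Rac2/Rac1 are higher in every wounded library than in any Normal Control library, and Rac2/Ptprc overlaps in all 3 groups.

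Within a group, Cyba, Ncf1, Ncf4 and Rac2 were compared in pairs over its 8 libraries on the log2 CPM scale, a set of 18 relations chosen after seeing the data. Pearson's r was above 0 for 6 of 6 pairs in SKF (0.39 to 0.83) and in Vehicle (0.03 to 0.65), and for 3 of 6 pairs in Normal Control (-0.65 to 0.51). None of the 18 passed after adjustment, and the sign was not stable in Vehicle. Without the 2 libraries farthest from the median of the first gene, r in Vehicle was -0.64 for Cyba with Ncf1, -0.64 for Cyba with Ncf4 and -0.31 for Cyba with Rac2, and Spearman's correlation of Cyba with Rac2 over all 8 libraries was -0.31. The highest r was that of Ncf4 with Rac2 in SKF (r = 0.83, permutation p = 0.0127, adjusted p = 0.174, and Spearman's correlation = 0.71, permutation p = 0.0576, adjusted p = 0.178). Without the 2 libraries farthest from the median of Ncf4 it was 0.49, so it rests in part on them.

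The genes most like each member were those with the smallest root mean square difference of centred log2 CPM over the 24 libraries, among 13158 genes with a usable symbol. For Rac2 these were Itgb2 (0.18), Fermt3 (0.20) and Myo1f (0.22). For Cyba they were Ptpn6 (0.23), Fxyd5 (0.24) and C1qc (0.24), and for Ncf1 they were Stxbp2 (0.22), Arhgap45 (0.24) and Unc93b1 (0.27). Ncf4 had more distant neighbours in Fcgr2b (0.29), Cd44 (0.36) and Tuba1c (0.37). Rac1, which varied little, was nearest to Gpat4 (0.07), Eef2 (0.07) and Pcbp1 (0.07). Among the members themselves the nearest pair was Cyba with Ncf1 (0.40) and the most distant pair Ncf4 with Rac1 (1.70). These distances are a description of 24 libraries that share the contrast with Normal Control, and no test was made.

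Of 12 other genes of the oxidase family, its organisers and its maturation factors, 4 were tested. In Vehicle against Normal Control 3 of them rose and 1 fell, with a median log2 fold change of 0.32. Over all genes tested 26.9% were called higher and 27.1% lower. The risers were Rap1b (0.65 ± 0.06), Rap1a (0.23 ± 0.09) and Cybc1 (0.41 ± 0.07), the chaperone of the membrane subunits, and Rac3 was the one that fell. With neither Normal Control 4 nor 6 the call of Rap1a was lost (0.17, edgeR adjusted p = 0.138). The remaining 8 genes, the other Nox and Duox proteins and their organisers, were under the filter.

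Among 10 tested exchange factors and inhibitors of Rac, 5 rose, 3 fell and 2 did not pass in Vehicle against Normal Control. Their median log2 fold change was 0.13, and over all genes tested 26.9% were called higher and 27.1% lower. Vav1, the exchange factor of blood cells, rose by 2.30 ± 0.15 and Arhgdib, a GDP dissociation inhibitor of blood cells, by 1.52 ± 0.11. Vav3 fell by 0.75 ± 0.16 and Prex2 fell by 0.74 ± 0.08. With neither Normal Control 4 nor 6, 6 of these 10 genes rose and 4 fell, with a median of 0.25, as Tiam1 (-0.31) and Tiam2 (0.29) then passed. Of 15 kinases and lipid signalling genes upstream of the oxidase, 7 rose, 5 fell and 3 did not pass, with a median of 0.11. Pik3r5, a regulatory subunit of the phosphoinositide kinase of myeloid cells, rose by 1.86 ± 0.25 and the adaptor Pik3ap1 by 1.64 ± 0.17. Genes of protein kinase C were among those that fell: Prkcd fell by 1.93 ± 0.47 and Prkce fell by 0.72 ± 0.10. Prkcd varied widely in Normal Control, from 441 to 4199 counts per library. With neither Normal Control 4 nor 6, 8 genes of this list rose and 4 fell, and the median was 0.35. Prkcb then lost its call (-0.17, edgeR adjusted p = 0.125) and Pik3cd gained one (0.35, edgeR adjusted p = 0.000232).

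The phagosome list counted 4 tested genes, of which 2 rose, 1 fell and 1 did not pass in Vehicle against Normal Control. Their median log2 fold change was 0.43, and over all genes tested 26.9% were called higher and 27.1% lower. Slc11a1, a metal transporter of the phagosome, rose by 2.15 ± 0.16, and Hvcn1, the proton channel that offsets the charge the oxidase moves, rose by 0.73 ± 0.15. Clcn3, a chloride and proton exchanger, fell by 0.22 ± 0.05, and on the log2(TPM + 1) scale it did not pass (-0.09, limma adjusted p = 0.158). Of 13 tested genes that remove superoxide and peroxide, 7 rose, 3 fell and 3 did not pass, with a median of 0.20. Txnrd1, a thioredoxin reductase, rose by 0.94 ± 0.07 and Gpx1, a glutathione peroxidase, by 0.85 ± 0.10. Prdx6, a peroxiredoxin that astrocytes express, fell by 0.47 ± 0.07 and catalase (Cat) fell by 0.18 ± 0.05. The fall of Cat did not pass on the log2(TPM + 1) scale (-0.05, limma adjusted p = 0.490). On that scale the genes that rose and fell numbered 5 and 2 among Rac regulators, 8 and 4 among upstream kinases, 3 and 0 in the phagosome list and 8 and 1 in the list of superoxide and peroxide removal. That scale called more genes higher than lower among all genes, with the counts given below. The shift of these list counts toward rises was not separated from that tilt.

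Of these 5 lists 0 genes passed in SKF against Vehicle. The gene farthest from 0 was Pik3ap1 at -0.57 ± 0.16 (log2, edgeR adjusted p = 0.704). In SKF against Normal Control the counts of genes that rose and fell were 2 and 1 in the oxidase family, 5 and 2 among Rac regulators, 7 and 4 among upstream kinases, 2 and 0 in the phagosome list and 7 and 2 among the genes of superoxide and peroxide removal. With neither Normal Control 4 nor 6 they were 2 and 1, 6 and 3, 9 and 4, 2 and 0, and 6 and 3 in the same order of lists. These counts share the Normal Control libraries with those of Vehicle against Normal Control. Over all genes tested, with all 24 libraries, 25.5% were called higher and 24.7% lower in SKF against Normal Control.

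**Figure D4:**
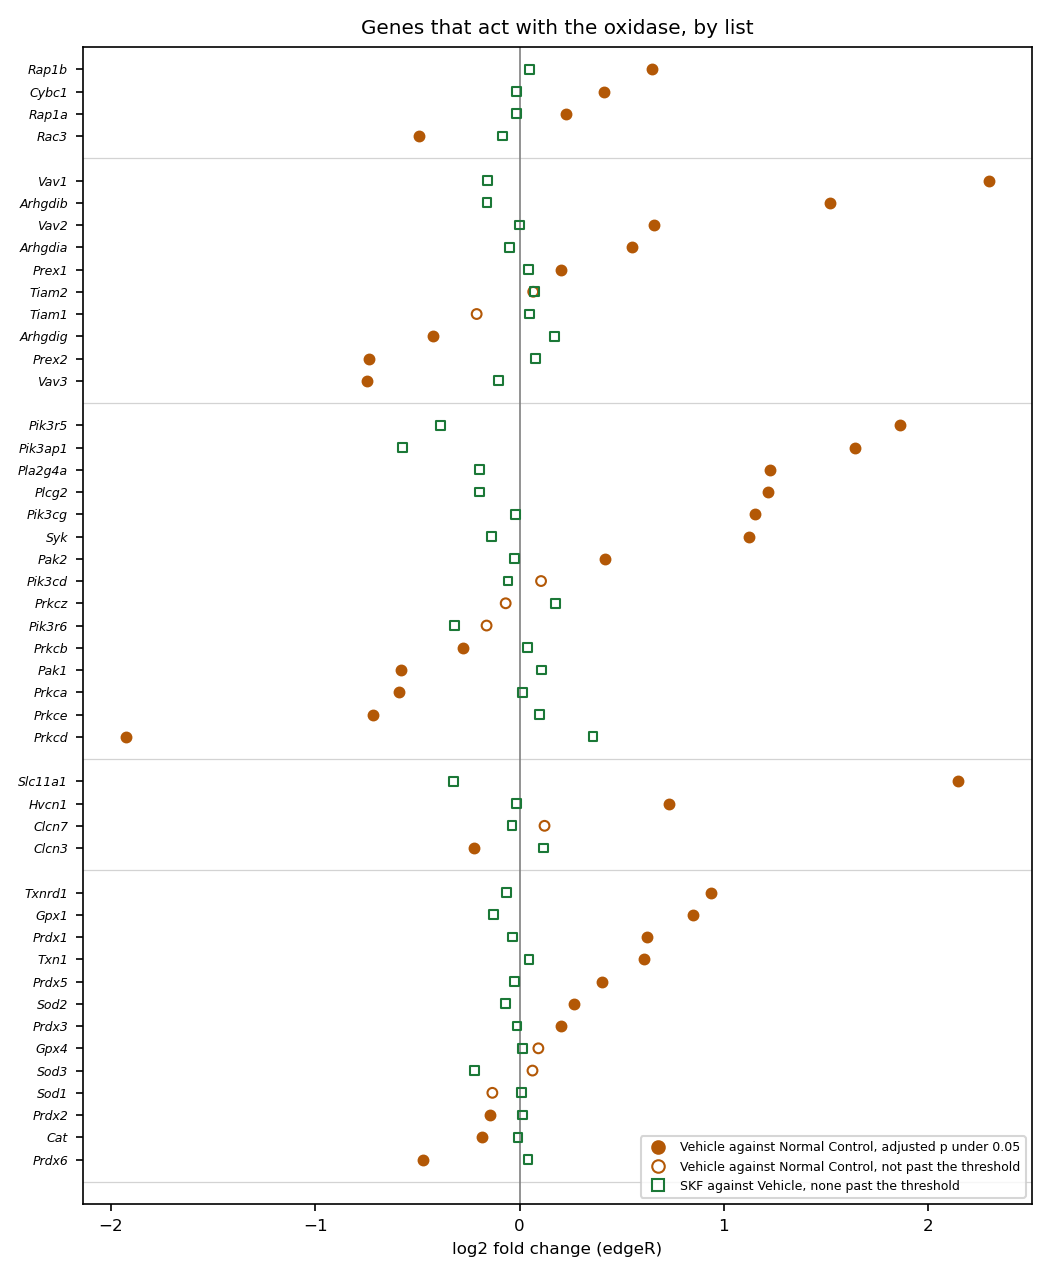
Log2 fold change (edgeR) of the tested genes of the 5 lists that act with the oxidase, from the oxidase family at the top to superoxide and peroxide removal at the bottom, in Vehicle against Normal Control (circles, filled where the adjusted p was under 0.05) and SKF against Vehicle (squares, none past the threshold). Vav1 lies farthest to the right at 2.30 and Prkcd farthest to the left at -1.93, and the squares lie between -0.57 and 0.36.

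Marker lists moved in the same contrast as the members. In Vehicle against Normal Control 7 of 7 pan-leukocyte markers rose, with a median log2 fold change of 2.37. Over all genes tested 26.9% were called higher and 27.1% lower in that comparison. All 8 macrophage and monocyte markers and all 5 tested neutrophil markers rose, but these counts are set in part by the filter. S100a8, S100a9, Cxcr2 and Mmp8 of the neutrophil list, and Ccr2, Msr1 and Ly6c of the macrophage list, had under 10 counts in every Normal Control library and passed through the wounded groups. Camp, Elane and Retnlg of the neutrophil list were under the filter. Of 6 tested homeostatic microglia markers 0 rose and 3 fell, among them P2ry12, a purine receptor of resting microglia (-1.49 ± 0.22, edgeR adjusted p = 2.77e-06). On the log2(TPM + 1) scale 1 of them, Cx3cr1, rose (0.29, limma adjusted p = 0.0145). Oligodendrocyte markers fell in 5 of 5, and in 4 of 5 on the log2(TPM + 1) scale, where Mag did not pass. Neuron markers fell in 5 of 6, in 4 of 6 with neither Normal Control 4 nor 6, and in 3 of 6 on the log2(TPM + 1) scale. Of 5 astrocyte markers 4 fell while Gfap rose. Of the vessel markers 4 of 5 endothelial genes rose. Of 6 pericyte and smooth muscle genes 1 rose and 3 fell, but 2 rose and 2 fell with neither Normal Control 4 nor 6, and 3 rose and 1 fell on the log2(TPM + 1) scale, so this list has no settled direction. Des, a filament gene of muscle, stood at 0.26 with all libraries (edgeR adjusted p = 0.715) and at 1.75 without those 2 (edgeR adjusted p = 3.28e-09). T cell markers rose in 2 of 3 tested (Cd2 and Cd8a) and the 1 tested B cell marker, Ighm, rose. Both lists were low in Normal Control. The median of the summed level there was 2.40 CPM for 5 T cell genes and 0.987 CPM for 5 B cell genes. The filter may thus have set these counts in part. Cd3e and Cd3g of the T cell list were under the filter. Cd3e lay below the Normal Control median in 8 of 8 Vehicle libraries, and Cd3g lay above it in 5. The part of these cell types in the rise of the members was not tested.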

How the data were processed

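Per the labels' protocols, the libraries were poly(A)-selected with a directional kit. Reads were assigned by the authors to build mRatBN7.2, per the submitters' processing notes, and deposited as whole-number counts per gene. TPM values for the same genes and samples were deposited by the authors beside them. Neither the aligner nor the counting program and its strand setting is named in the sources used here. Groups came from the sample titles.

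The members and gene lists were chosen with earlier results of these data known. All 24 libraries entered 1 edgeR fit (version 4.0.16, R 4.3.3) with TMM, filterByExpr by group and a robust quasi-likelihood fit, with 21 residual degrees of freedom and Benjamini-Hochberg adjustment over 14421 genes. CPM values use TMM-scaled library sizes. TPM ratios within a library were compared by two-sided exact permutation, adjusted over 18 tests. Ratios against Cybb were intended and could not be formed, and the ratios to Ptprc and of Ncf4 to Ncf1 were added after seeing the data. Libraries of 1 group differed by a chi-square per gene of at least 4.86, where sampling noise gives 1. On data simulated for SKF against Vehicle (14291 genes) edgeR called 76% of 50 genes changed 1.5-fold and 88% of 50 changed 2-fold. These genes were drawn from those with higher counts and were changed together with others by up to 4-fold. Smaller changes were not simulated, so the rates do not give the power for the members' differences between SKF and Vehicle.

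Each member was named, with its 3 most alike genes, and from each list the 2 largest rises and the 2 largest falls that passed in Vehicle against Normal Control, and any gene that passed in SKF against Vehicle. A gene that the rule also names is not reported here. Other list genes were chosen after their values were seen. The fit was repeated with DESeq2 1.42.0, with RLE size factors, with every gene that had a count (18951 genes), with a CPM minimum of 1 in 8 libraries, with 2 groups at a time, with limma 3.58.1 voom and sample weights, with the replicate number as a block, with limma on log2 TPM after adding 1 or 0.1 (for genes with 0.5 TPM or more in 8 libraries), and with libraries left out.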

Additional observations from a re-analysis of the deposited data

Results flagged for a closer look

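Of 36 sets of 8 values tested for a library far from the rest, 3 had one, and chance gives about 1 in 20. The ratio of Cyba to Ptprc (TPM) was 18.9 in SKF 7, where the next highest SKF library had 11.3. The ratio of Rac2 to Ptprc was 3.58 in the same library, SKF 7, where the next highest had 2.90. The ratio of Ncf1 to Ptprc was 4.96 in Vehicle 8, where the next highest Vehicle library had 4.29. No cause was tested for these values.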

How the results depend on the processing

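The counts of genes called stayed within 1.5 times the reported ones in 78 of 78 alternatives. With the replicate block they were 7434 in Vehicle against Normal Control, 0 in SKF against Vehicle and 6830 in SKF against Normal Control, and the block changed no call of a member. Same-numbered libraries deviated together with r from -0.24 to 0.08, and 0 of 24 libraries correlated best with their own number, so the numbers were not taken to pair samples. On the log2(TPM + 1) scale 5476 genes were higher and 2408 lower in Vehicle than in Normal Control, and 4996 higher and 2296 lower in SKF than in Normal Control. Of 390 alternatives for the log2 fold changes of members, 383 kept their direction and their side of the threshold. The 1 call lost was Rac1 in SKF against Normal Control with neither Normal Control 4 nor 6 (0.12, edgeR adjusted p = 0.0520).

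The other changes were of direction, in SKF against Vehicle, for values near 0 that had not passed, when 1 library was left out. The log2 fold change then ran from -0.0231 to 0.00846 for Rac1 and from -0.12 to 0.0034 for Cyba, the difference of Nox4 from -0.048 to 0.039 CPM, and the log2 ratio difference from -0.0440 to 0.0691 for Rac2 to Ptprc and from -0.0764 to 0.0624 for Ncf4 to Ncf1. The ratio of Cyba to Ptprc in SKF against Normal Control ran from -0.55 to -0.34 and passed without SKF 7 or Normal Control 1. The cause was not tested. Ratios against Cybb were not run under any setting. Depth limits Nox4 most, with 68 counts in 24 libraries.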
